A study of Mus musculus with 8 samples.

Results

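The 10 genes described here, *Cdsn*, *Tgm1*, *Sfn*, *S100a7a*, *Tfap2a*, *Ly6d*, *Msln*, *Meox2*, *Ugt1a6a* and *Mgst3*, were chosen by name as a set of genes seen in induced pluripotent stem cells (iPSCs) made from mouse embryonic fibroblasts (MEFs), and they are measured by 18 of the 25697 probes on the arrays and make up 10 of 16593 named genes. Their levels in the MEF 4F iPSCs were known when they were chosen, so these levels are given as a description with no test. The study hybridised RNA of 8 mouse samples to Illumina bead arrays, 1 array each, with no replicate except for a pair of clones. The MEFs, the brain-derived neural stem cells (NSCs) and the embryonic stem cells (ESCs) carried a Tet-On background and were of the B6D2F1/J strain. The MEF 4F iPSCs were derived from MEFs with *Oct4*, *Sox2*, *Klf4* and *Myc*, and the NSC 2F iPSCs from NSCs with *Oct4* and *Klf4*; both were of the B6D2F1/J strain. The induced neural stem cells (iNSCs), which had been converted directly from MEFs, and the 2 iPSC clones derived from them with *Oct4* and *Klf4* (iNdiPSC-1 and iNdiPSC-4) were of the C3H strain. All 3 kinds of iPSC were grown on feeder cells in 2i medium, and each of these lines stands for 1 culture. The labels mark the iNSCs as pluripotent, but they were treated here as somatic cells, as the study does.

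The outer layer of the skin is a stratified epithelium in which basal keratinocytes divide, move upwards and are converted into dead, flattened cells that are held together by modified junctions and wrapped in a cross-linked protein shell, the cornified envelope. *Cdsn*, *Tgm1*, *Sfn*, *S100a7a* and *Ly6d* are known from this tissue or from other stratified epithelia, and *Tfap2a* encodes a transcription factor of the surface ectoderm from which the epidermis arises. The remaining genes are not epidermal by their known roles: *Msln* is a surface protein of mesothelium, *Meox2* a homeobox gene of embryonic mesoderm, and *Ugt1a6a* and *Mgst3* encode enzymes that conjugate foreign or oxidised compounds.

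Levels are log2 intensities after background correction and quantile normalization, and the probe with the highest mean stands for a gene. A probe was called detected where its detection p, the share of negative control beads at least as bright, was below 0.01. Detected probes numbered 11087 (ESCs) to 12128 (MEF 4F iPSCs) on the 8 arrays, and the lowest detected level lay between 4.97 (MEF 4F iPSCs) and 5.27 (ESCs). A level under it is only a bound, and a fold against such an array was taken from the lowest detected level of that array and is written "at least". The iNdiPSC clones give the only measure of spread: over 7808 genes detected in both clones the median absolute difference was 0.17 and the 95th percentile 0.57 on the log2 scale. The precision of every other value is limited by its single array. In RNA of whole cultures, fewer cells of a type and less RNA per cell cannot be told apart.

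Of the 10 genes, 9 were detected in the MEF 4F iPSCs. The 9 genes fell into 3 patterns across the arrays. *Cdsn*, *S100a7a*, *Msln*, *Meox2* and *Ugt1a6a* were detected in the MEFs and the MEF 4F iPSCs and on no other array, which held for 54 (0.325%) of all named genes. *Sfn* and *Tgm1* were detected on all 5 pluripotent arrays and in no somatic sample, as were 368 (2.22%) of all named genes. *Mgst3* was detected on all arrays, and *Tfap2a* on 6 of 8. *Ly6d* was detected on none.

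**Figure D1:**
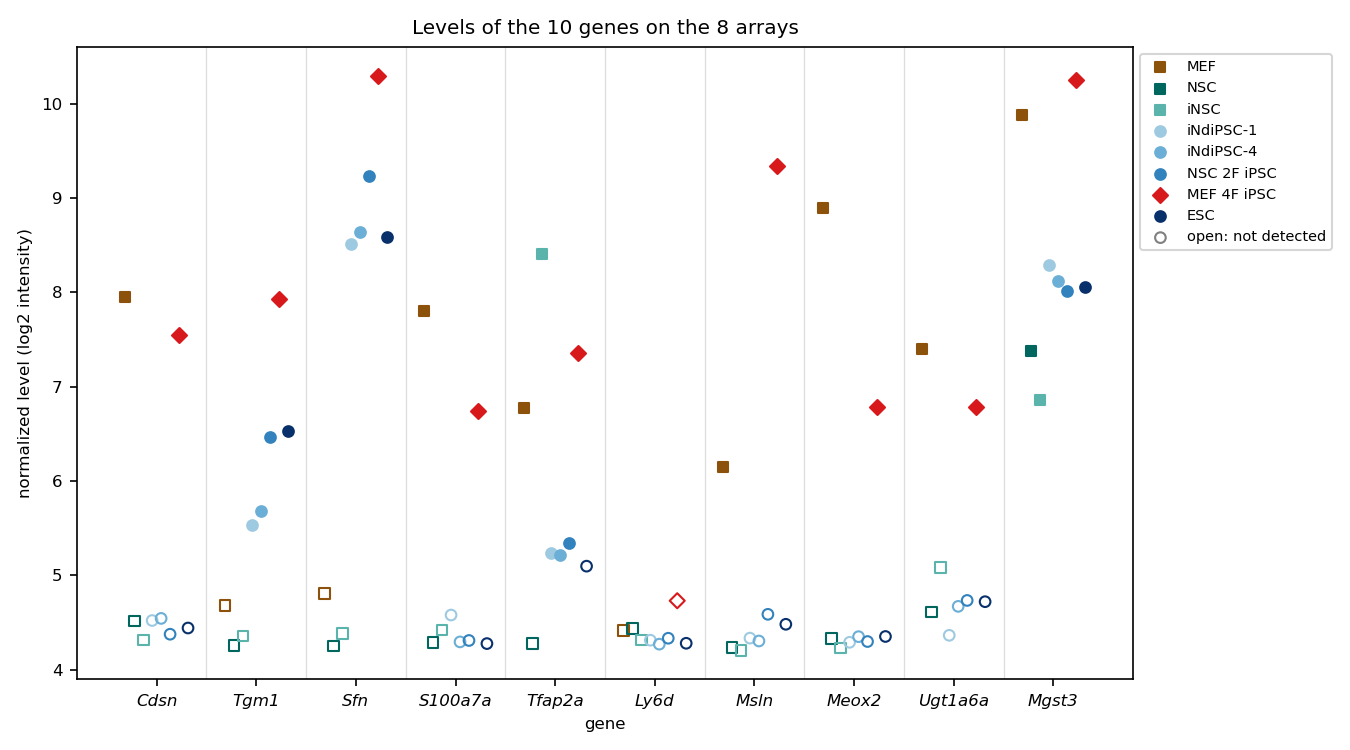
Levels of the 10 genes (x axis) on the 8 arrays as log2 intensity (y axis); squares are somatic samples, circles the 4 other pluripotent arrays, diamonds the MEF 4F iPSCs, and open symbols probes not detected. The diamond lies above every circle for each of the 9 genes detected in the MEF 4F iPSCs, and only *Mgst3* is filled on all arrays.

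The genes of the cornified layer are described first. *Cdsn* encodes corneodesmosin, an adhesive protein of the junctions between cornified cells. Its level was 7.95 in the MEFs and 7.55 in the MEF 4F iPSCs, and it was not detected in the NSCs (4.51), the iNSCs (4.31), iNdiPSC-1 (4.52), iNdiPSC-4 (4.54), the NSC 2F iPSCs (4.37) or the ESCs (4.44). Thus the MEFs and the MEF 4F iPSCs stood apart from the other 6 arrays. Corneodesmosin RNA in the MEF 4F iPSCs was at least 4.84-fold higher than in the ESCs and at least 5.25-fold higher than in the NSC 2F iPSCs, and 1.32-fold lower than in the MEFs, a difference smaller than the 95th percentile between the clones. The second *Cdsn* probe was likewise detected in the MEFs (6.17) and the MEF 4F iPSCs (6.28) only.

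*Tgm1* encodes transglutaminase 1, the membrane-bound enzyme that cross-links proteins of the cornified envelope. It reached 7.94 in the MEF 4F iPSCs, 6.53 in the ESCs, 6.47 in the NSC 2F iPSCs, 5.68 in iNdiPSC-4 and 5.53 in iNdiPSC-1. It was not detected in the MEFs (4.68), the NSCs (4.26) or the iNSCs (4.36). The 5 pluripotent arrays did not overlap the somatic ones. For *Tgm1* the MEF 4F iPSCs were 2.65-fold above the ESCs, 2.76-fold above the NSC 2F iPSCs, 5.30-fold above iNdiPSC-1, 4.79-fold above iNdiPSC-4 and at least 7.17-fold above the MEFs. In the order of levels, the ESCs and the NSC 2F iPSCs differed by less than the clone spread, and so did the clones from each other.

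*Sfn* encodes 14-3-3 sigma, an adaptor protein that is abundant in stratified epithelia and acts in the arrest of the cell cycle. Its level was 10.30 in the MEF 4F iPSCs, 9.23 in the NSC 2F iPSCs, 8.64 in iNdiPSC-4, 8.59 in the ESCs and 8.51 in iNdiPSC-1. The MEFs (4.81), the NSCs (4.25) and the iNSCs (4.38) were not detected. For *Sfn* the MEF 4F iPSCs were 2.10-fold above the NSC 2F iPSCs, 3.27-fold above the ESCs and 3.44-fold and 3.15-fold above iNdiPSC-1 and iNdiPSC-4, and the last 3 arrays in this order lay within the clone spread of one another. The margin over the NSC 2F iPSCs was the smallest of the 9 genes, 1.07 on the log2 scale, and it was 0.95, under 2-fold, both with 75th percentile scaling and without background correction. A second *Sfn* probe was not detected on any array, so the level rests on 1 probe.

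*S100a7a* belongs to the S100 family of small calcium-binding proteins, and its human relative S100A7, psoriasin, is known from inflamed epidermis. It was 7.80 in the MEFs and 6.75 in the MEF 4F iPSCs, while the NSCs (4.28), the iNSCs (4.42), iNdiPSC-1 (4.58), iNdiPSC-4 (4.29), the NSC 2F iPSCs (4.31) and the ESCs (4.28) were not detected. The MEF 4F iPSCs were at least 2.78-fold above the ESCs and 2.08-fold below the MEFs.

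*Ly6d* encodes a small GPI-anchored surface protein of the Ly6 family that is found on keratinocytes and on some lymphoid cells. It was listed under the detection limit on every array, at 4.73 in the MEF 4F iPSCs and between 4.27 and 4.43 on the other 7 arrays. The detection p of its brighter probe in the MEF 4F iPSCs was 0.0401, and the other probe was not detected either. No fold is given for it.

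*Tfap2a* encodes AP-2 alpha, a transcription factor of the surface ectoderm and the neural crest. Its highest level was not in a pluripotent line but in the iNSCs, at 8.41. The MEF 4F iPSCs followed with 7.36 and the MEFs with 6.77, and then the NSC 2F iPSCs (5.34), iNdiPSC-1 (5.24) and iNdiPSC-4 (5.22). It was not detected in the ESCs (5.10) and the NSCs (4.28). In the MEF 4F iPSCs *Tfap2a* was 4.04-fold above the NSC 2F iPSCs, 4.34-fold above iNdiPSC-1, at least 4.24-fold above the ESCs, 0.58 above the MEFs on the log2 scale and 2.07-fold below the iNSCs. The 3 lowest detected levels differed by less than the clone spread. The 3 probes of the gene did not give the same picture: the second was detected in the iNSCs (6.59), the MEFs (5.47) and the MEF 4F iPSCs (5.25) only, with the MEFs above the MEF 4F iPSCs, and the third was detected in the iNSCs (5.76) alone.

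The genes with no epidermal role follow. Mesothelin was 9.35 in the MEF 4F iPSCs and 6.14 in the MEFs, and it was not detected in the NSCs (4.23), the iNSCs (4.20), iNdiPSC-1 (4.33), iNdiPSC-4 (4.30), the NSC 2F iPSCs (4.59) or the ESCs (4.48). It was at least 16.8-fold higher in the MEF 4F iPSCs than in the ESCs, at least 18.3-fold higher than in the NSC 2F iPSCs and 9.19-fold higher than in the MEFs. Both arrays on which it was detected thus differed far beyond the clone spread, with the iPSCs higher.

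*Meox2*, which acts in the patterning of somites and limb muscle, showed the opposite order. It was 8.90 in the MEFs and 6.79 in the MEF 4F iPSCs and was not detected in the NSCs (4.33), the iNSCs (4.23), iNdiPSC-1 (4.29), iNdiPSC-4 (4.35), the NSC 2F iPSCs (4.30) or the ESCs (4.35). Thus the MEF 4F iPSCs were 4.31-fold below the MEFs and at least 2.86-fold above the ESCs.

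*Ugt1a6a* encodes a UDP-glucuronosyltransferase, which couples phenolic compounds to glucuronic acid. Its brightest probe read 7.40 in the MEFs and 6.79 in the MEF 4F iPSCs and was not detected in the NSCs (4.61), the iNSCs (5.08), iNdiPSC-1 (4.36), iNdiPSC-4 (4.67), the NSC 2F iPSCs (4.73) or the ESCs (4.72). The MEF 4F iPSCs were 1.53-fold below the MEFs and at least 2.86-fold above the ESCs. Both other probes of the gene were detected in the MEFs alone (5.82 and 5.26) and not in the MEF 4F iPSCs (4.64 and 4.62). The *Ugt1a* genes share their last exons, so a probe there cannot tell them apart; the probe named for *Ugt1a10* showed the same pair of arrays, with 8.26 in the MEFs and 6.90 in the MEF 4F iPSCs.

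*Mgst3* encodes a microsomal glutathione transferase of the endoplasmic reticulum. It was 10.25 in the MEF 4F iPSCs, 9.88 in the MEFs, 8.29 in iNdiPSC-1, 8.12 in iNdiPSC-4, 8.05 in the ESCs, 8.02 in the NSC 2F iPSCs, 7.38 in the NSCs and 6.85 in the iNSCs. The MEF 4F iPSCs exceeded the MEFs by 1.30-fold, within the clone spread, and the other 4 pluripotent arrays, which did not differ among themselves beyond that spread, by 3.90-fold to 4.71-fold. The second probe gave the same pair on top, 9.92 in the MEF 4F iPSCs and 9.77 in the MEFs, against 6.66 to 7.96 on the other arrays.

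Each of the 9 genes detected in the MEF 4F iPSCs was at least 2-fold higher there than in the ESCs, where 6.02% of 8567 genes were. The same held against the NSC 2F iPSCs (9 genes, 3.96% of 8604) and against the mean of the iNdiPSC clones (9 genes, 5.68% of 8911). All 9 were at least 2-fold above each of the 4 other pluripotent arrays, as were 197 (2.17%) of 9068 genes. The choice of the genes fixed these counts, and nothing is read from them. Without background correction, which compresses low levels, 3 genes (*Cdsn*, *Mgst3* and *Msln*) passed 2-fold over each of those arrays. The margins over the highest other pluripotent array ran from 2.10-fold (*Sfn*) to at least 16.8-fold (*Msln*), and those of *Cdsn*, *S100a7a*, *Msln*, *Meox2* and *Ugt1a6a* are bounds.

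Against their donor cells, the MEFs, the genes differed in direction. Of the 9, *Sfn*, *Tgm1* and *Msln* were at least 2-fold higher in the MEF 4F iPSCs, where 21.9% of 9233 genes were, *Meox2* and *S100a7a* were at least 2-fold lower, where 21.1% of all genes were, and *Cdsn*, *Tfap2a*, *Ugt1a6a* and *Mgst3* lay within 2-fold of the MEFs, where 57.1% were. Their median difference was 0.37 on the log2 scale, beside 0.03 over all genes. For comparison, of 15 fibroblast genes measured, all 15 were detected in the MEFs and 12 in the MEF 4F iPSCs, and these 12 were lower there than in the MEFs, with differences from -5.72 to -3.61 (*Lum*) and a median of -4.19 on the log2 scale. The difference of *Meox2*, the lowest of the 9 genes, was -2.11. The 9 genes were chosen with their high levels in the MEF 4F iPSCs known, so this contrast is a description only.

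The iPSCs had been grown on feeder cells, and fibroblast genes were detected in all of the pluripotent lines. The summed level of the 15 fibroblast genes was 11.90 on the log2 scale in the MEF 4F iPSCs, 12.07 in the NSC 2F iPSCs, 11.14 and 11.01 in iNdiPSC-1 and iNdiPSC-4 and 11.19 in the ESCs, against 16.23 in the MEFs. *Sparc* was the highest of the 15 in each pluripotent line (10.10 to 10.75) and read 11.17 in the iNSCs, so these sums lean on a gene not limited to fibroblasts here. In the NSC 2F iPSCs, as in the MEF 4F iPSCs, 12 of the 15 were detected, among them *Dcn*, a matrix proteoglycan (8.83 and 8.53), and *Col1a1*, the main collagen of connective tissue (7.29 and 7.02). *Col1a2*, *Pdgfrb* and *Postn* were not detected in either line. *Cdsn*, *S100a7a*, *Msln*, *Meox2* and *Ugt1a6a* were not detected in the NSC 2F iPSCs. The part of feeder RNA in the levels of the 9 genes was not tested. *S100a4* was the one fibroblast gene at least 2-fold above every other pluripotent array in the MEF 4F iPSCs (8.00, 3.28-fold).

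**Figure D2:**
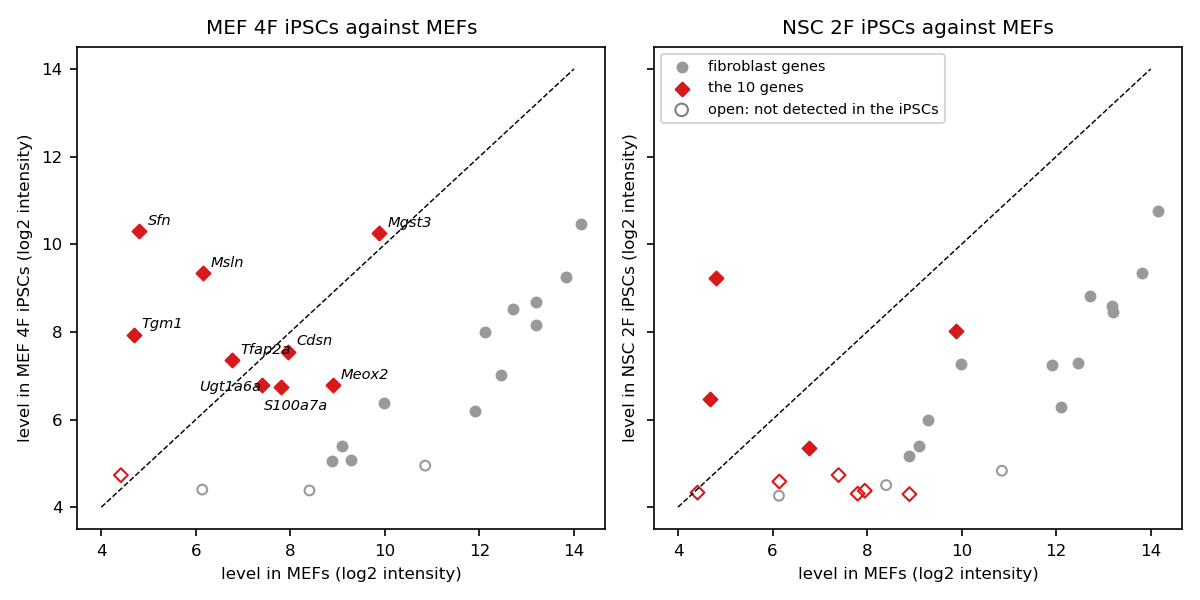
Levels in the MEF 4F iPSCs (left) and the NSC 2F iPSCs (right) on the y axis against levels in the MEFs on the x axis, all as log2 intensity; diamonds are the 10 genes, grey circles 15 fibroblast genes, open symbols are not detected in the iPSCs, and the dashed line marks equal levels. The filled fibroblast circles lie far below the line in both panels, the 9 filled diamonds of the MEF 4F iPSCs lie nearer to it or above it, and 5 of these genes are open in the NSC 2F iPSCs.

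The other 7 arrays, which leave out the MEF 4F iPSCs, allow a test of the genes between the 4 other pluripotent arrays and the 3 somatic samples. With limma, 2773 (30.3%) of 9142 genes differed by 2-fold or more with p adjusted by Benjamini-Hochberg under 0.05; 16.6% were higher in the pluripotent lines and 13.7% lower. Of the 10 genes, 4 were detected on at least 2 of these arrays and were tested, and 2 were called, both higher. *Sfn* and *Tgm1* were detected on none (0) of the somatic arrays and so passed the detection filter through the pluripotent arrays alone, and the 5 genes detected only in the MEFs among these 7 arrays could not enter, so the count and its direction say nothing about the 10 genes as a set. For *Sfn* and *Tgm1* all 3 somatic levels lay under the detection limit. Their standard errors and p-values therefore do not measure a spread of expression among the somatic samples and are given as a description. *Sfn* was 4.26 higher on the log2 scale (SE 0.26, limma adjusted p 4.79e-05), with means of 8.74 and 4.48, which is at least 12.0-fold once the undetected somatic levels are set at the detection limit. *Tgm1* was 1.62 higher (SE 0.32, limma adjusted p 0.00714), with means of 6.05 and 4.43 and a bound of at least 1.86-fold. Without background correction its difference was 0.49, under 2-fold (limma adjusted p 0.0299).

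*Tfap2a* (difference -1.26, SE 0.84, limma adjusted p 0.263) and *Mgst3* (0.08, SE 0.66, limma adjusted p 0.929) did not pass this test, and both moved with the somatic arrays included. The difference of *Tfap2a* was -2.36 without the NSCs (limma adjusted p 0.0083), -0.30 without the iNSCs (limma adjusted p 0.745) and -1.12 without the MEFs (limma adjusted p 0.355). That of *Mgst3* was 1.01 without the MEFs (limma adjusted p 0.00928), -0.25 without the NSCs (limma adjusted p 0.821) and -0.51 without the iNSCs (limma adjusted p 0.567). The somatic samples are 3 different cell types, and their spread enters the standard errors. *Tfap2a* was not detected in the NSCs (4.28) or the ESCs (5.10), so its differences and standard errors rest in part on levels that are bounds.

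Between the iNdiPSC clones and the ESCs together with the NSC 2F iPSCs, limma called 89 (1.09%) of 8161 genes (0.38% higher and 0.711% lower in the clones) and none (0) of the 4 genes tested; over all genes 1644 had an unadjusted p below 0.05. *Tgm1* came closest, with a mean of 5.60 in the clones and 6.50 in the other lines, a difference of -0.90 (SE 0.18, unadjusted p 0.0034, limma adjusted p 0.0986). The differences of *Sfn* (-0.33, adjusted p 0.513), *Mgst3* (0.17, adjusted p 0.622) and *Tfap2a* (0.01, adjusted p 0.979) were smaller. The clones and the lines compared with them also differ in strain, and strain and derivation cannot be told apart here. Without either clone 2 genes were called, and without the ESCs or the NSC 2F iPSCs 386 and 914.

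Promoter windows of RefSeq (build GRCm38.p6, 250 bases before to 50 after the annotated start) were found for 8 of the 10 genes, with 11 windows in all; *Ly6d* and *Msln* had no entry. Windows are shown from the pair detected on all pluripotent arrays and on no somatic one (*Sfn*, *Tgm1*) and from a pair detected in the MEFs and the MEF 4F iPSCs alone (*Cdsn*, *Meox2*). Capitals mark matches to the grainyhead-like motif AACCNGTT in *Sfn* (chr4:133602119-133602418, minus strand) and to the antioxidant response element TGACNNNGC in *Meox2* (chr12:37108290-37108589, plus strand), each on either strand. The windows of *Tgm1* (chr14:55713443-55713742, minus strand) and *Cdsn* (chr17:35542851-35543150, plus strand) hold none of the motifs searched.
Sfn: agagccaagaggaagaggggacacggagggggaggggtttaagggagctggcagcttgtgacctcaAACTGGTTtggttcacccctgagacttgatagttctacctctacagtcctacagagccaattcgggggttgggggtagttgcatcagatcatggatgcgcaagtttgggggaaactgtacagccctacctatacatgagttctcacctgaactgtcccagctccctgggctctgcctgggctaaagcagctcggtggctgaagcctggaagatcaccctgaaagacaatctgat
Tgm1: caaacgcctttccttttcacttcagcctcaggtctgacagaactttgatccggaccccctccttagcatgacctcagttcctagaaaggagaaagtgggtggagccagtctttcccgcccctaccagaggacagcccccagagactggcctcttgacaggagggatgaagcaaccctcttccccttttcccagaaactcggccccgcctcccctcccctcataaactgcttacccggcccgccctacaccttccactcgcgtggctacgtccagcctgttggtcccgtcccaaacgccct
Cdsn: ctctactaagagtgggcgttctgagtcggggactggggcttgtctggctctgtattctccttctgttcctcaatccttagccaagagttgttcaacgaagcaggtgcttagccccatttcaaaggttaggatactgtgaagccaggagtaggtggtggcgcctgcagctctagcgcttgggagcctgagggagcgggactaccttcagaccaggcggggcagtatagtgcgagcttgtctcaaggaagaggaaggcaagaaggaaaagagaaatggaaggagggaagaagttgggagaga
Meox2: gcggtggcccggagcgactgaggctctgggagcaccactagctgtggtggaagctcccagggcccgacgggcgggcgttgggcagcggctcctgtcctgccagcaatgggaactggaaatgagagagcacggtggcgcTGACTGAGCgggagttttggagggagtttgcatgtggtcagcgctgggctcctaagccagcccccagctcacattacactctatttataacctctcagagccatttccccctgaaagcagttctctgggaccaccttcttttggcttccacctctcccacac

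The motifs were searched on both strands, and no match of one overlapped that of another in these windows. GCCNNNGGC, the site bound by AP-2 proteins such as the product of *Tfap2a*, was in none (0) of the 8 genes with a window, beside 18.5% of 27025 genes in the table. AACCNGTT, the site of the grainyhead-like factors of surface epithelia, was in *Sfn* alone, beginning at position -184 from the start, beside 2.35% of genes. TGACNNNGC, found in many genes of the oxidative stress response, was in *Tfap2a* (position -159) and *Meox2* (position -112), beside 14.0% of genes, and not in the windows of the enzymes *Ugt1a6a* and *Mgst3*. A match is a stretch of letters and not a site shown to be bound.

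Further genes of the epidermis were read from lists chosen by their known roles. The lists were drawn up with earlier results of these data known, so their counts are a description and not an independent test. Of 30 measured genes of the cornified envelope and epidermal differentiation, 21 were detected in the MEF 4F iPSCs, 12 in at least 1 of the other pluripotent lines and 7 in the MEFs. Of the 30, 22 were detected on at least 1 pluripotent array and enter the comparison. Of these 22, 15 were at least 2-fold above every other pluripotent array, beside 2.17% of 9068 genes so detected. The median difference of the 22 to the highest other pluripotent array was 1.99 on the log2 scale, beside -0.32 over the 9068 genes. The highest levels were those of *Ly6g6c*, a Ly6 family gene (10.93, 45.6-fold), and the kallikrein proteases *Klk7* (9.84, 20.2-fold) and *Klk8* (10.49, against 8.68 in the ESCs), which act in the shedding of cornified cells. The small proline-rich envelope proteins *Sprr2d* (9.81, at least 23.2-fold), *Sprr1a* (9.39, 12.8-fold) and *Sprr1b* (8.77, at least 11.3-fold) were among the 15, as were *Lor*, the loricrin of the envelope (8.90, 3.39-fold), *Ppl*, or periplakin (8.19, 3.93-fold), and *Alox12b*, a lipoxygenase of the skin barrier (7.54, 4.03-fold). Their relative *Sprr2a1* did not pass: it was detected on all arrays, at 9.47 in the MEF 4F iPSCs and 9.87 in iNdiPSC-1. Outside the pluripotent lines, *Lor* read 8.39 in the NSCs.

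Unlike *Cdsn* and *S100a7a*, most of this list was low or not detected in the MEFs. The MEFs read 4.31 for *Ly6g6c*, 4.50 for *Sprr2d* and 4.41 for *Sprr1b*, none detected, and *Klk8* (9.32) was the only one of the 15 with a MEF level above 6. In the list, 9 genes were detected in the MEF 4F iPSCs and on no other array, namely *Sprr1b*, *Sprr2d*, *Tgm3*, *Klk6*, *Dmkn*, *Lce1b*, *Cnfn*, *Calml3* and *Lypd3*. The same held for 168 of 10225 genes detected on any array. Of the 9, *Calml3* (5.01) and *Lce1b* (5.31) lay near the detection limit, which was lowest on this array (4.97, against 5.27 in the ESCs), and did not pass 2-fold. *Casp14*, a protease of cornifying cells, was not detected in the MEF 4F iPSCs (4.69) or the ESCs (4.52) and read 6.65, 6.09 and 6.31 in iNdiPSC-1, iNdiPSC-4 and the NSC 2F iPSCs. *Krt1* and *Ivl*, which mark suprabasal keratinocytes, were not detected on any array, and *Krt10* was detected on all of them, at 7.66 in the MEF 4F iPSCs, 7.54 in the NSC 2F iPSCs and 9.51 in the iNSCs.

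Of 20 measured genes of basal keratinocytes and their adhesion, 11 were detected on at least 1 pluripotent array. Of these 11, 4 were at least 2-fold above every other pluripotent array, beside 2.17% of 9068 genes. They were the keratins *Krt14* (10.61, at least 40.4-fold) and *Krt17* (11.11, 8.38-fold), the hemidesmosomal integrin *Itgb4* (10.85, 10.1-fold) and the laminin chain *Lamb3* (7.08, 2.56-fold). The median difference of the 11 to the highest other pluripotent array was 0.59 on the log2 scale, beside -0.32 over the 9068 genes. *Krt5*, the usual partner of *Krt14*, *Trp63*, which encodes the p63 regulator of stratified epithelia, and the desmosomal cadherin *Dsg3* were not detected on any array. By these readings the label epidermal described part of the keratinocyte markers only, with *Krt14* high and *Krt5* and *Trp63* not detected. Each gene was read from its probe with the highest mean, and a probe not detected does not show that the gene is silent. *Jup* and *Perp* of the same list were also not detected on any array. The summed level of the list was 12.71 on the log2 scale in the MEF 4F iPSCs and 10.11 to 10.31 in the other pluripotent lines. *Krt14*, *Krt17* and *Itgb4* made up most of the sum in the MEF 4F iPSCs, so it does not show a rise across the list.

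**Figure D3:**
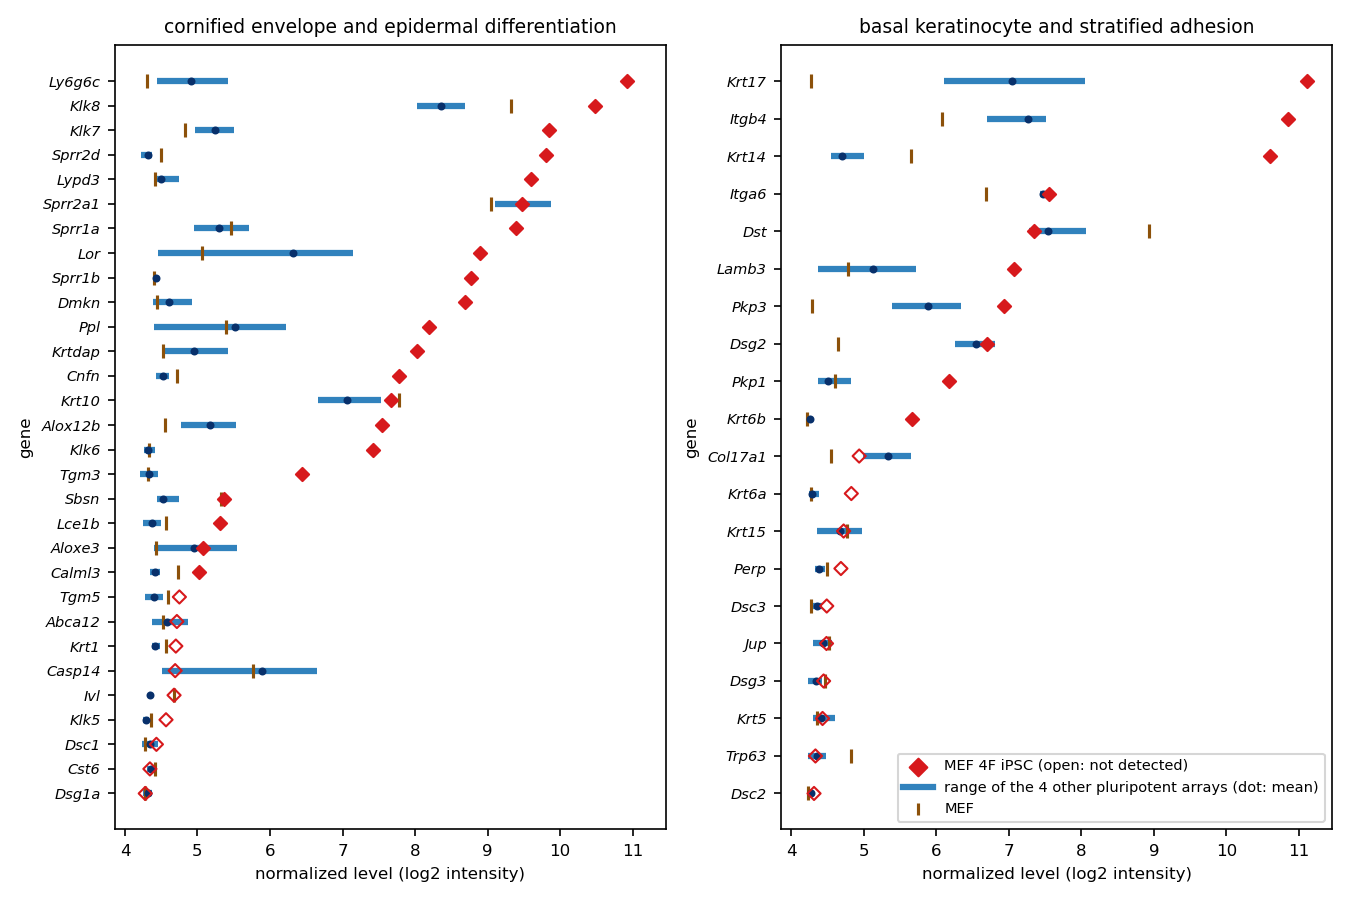
Levels (x axis, log2 intensity) of 30 genes of the cornified envelope (left) and 20 of basal keratinocytes (right), 1 gene per row; diamonds are the MEF 4F iPSCs (open where not detected), bars span the 4 other pluripotent arrays with a dot at their mean, and ticks are the MEFs. With undetected levels raised to the detection limit, the diamond lies at least 2-fold above the bar for 15 genes on the left and 4 on the right, and *Krt5*, *Trp63* and *Dsg3* are open.

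Regulators of the surface ectoderm were read next. None (0) of 19 measured regulators was at least 2-fold above every other pluripotent array, near the 2.17% over all genes. In the MEF 4F iPSCs 12 were detected. The 12 detected on any pluripotent array had a median difference to the highest other array of -0.86 on the log2 scale. Over 9068 genes it was -0.32. *Tfap2c*, the AP-2 gene of pluripotent and trophoblast cells, read 11.01 in the MEF 4F iPSCs and 11.25 to 11.84 in the others. *Grhl3*, a grainyhead-like factor of the epidermal barrier, was 5.07 against 6.46 to 6.68, and *Klf4*, one of the reprogramming factors and a barrier gene, was 8.83 against 9.98 to 11.27. Others were not lower: *Esrp1* read 9.76 against 8.91 to 9.70, and *Grhl1* 7.25 against 6.75 to 7.21. *Grhl2* (8.60) lay within the range of the other lines, 7.06 to 9.93. Of the 10 genes, only *Tfap2a* belongs to this class.

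The pluripotency genes were all present. All 12 measured were detected in the MEF 4F iPSCs with a summed level of 15.23 on the log2 scale, beside 15.54 to 15.67 in the other lines. Their median difference to the highest other array was -0.88, beside -0.32 over 9068 genes. *Nanog* read 11.46 against 12.27 to 13.32, *Dppa3* 7.90 against 9.32 to 10.13 and *Pou5f1* 12.21 against 11.75 to 12.79. The part of these levels in those of the 9 genes was not tested.

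Markers of other epithelia and of mesoderm were read beside the genes named for them. Of 9 genes of simple epithelium, all 9 were detected in the MEF 4F iPSCs, and all 9 also in the NSC 2F iPSCs. *Krt7*, *Krt19* and *Cldn3* were at least 2-fold above every other pluripotent array, beside 2.17% of 9068 genes. The median difference of the 9 to the highest other array was 0.61 on the log2 scale, beside -0.32 over the 9068 genes. For *Msln*, 3 of 7 other mesothelial genes were detected in the MEF 4F iPSCs; *Wt1* was 7.71 there and 2.12-fold above the highest other line, *Upk3b* was 5.26, and *Upk1b* was not detected although it read 8.79 in the MEFs. For *Meox2*, none (0) of 10 genes of paraxial mesoderm and limb muscle passed 2-fold, and its relative *Meox1* was not detected on any array. None (0) of 10 trophoblast genes passed; *Elf5* (5.92) was detected in the MEF 4F iPSCs alone.

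Of 33 measured close relatives of the genes, 24 were detected on at least 1 pluripotent array. Of these 24, 7 were at least 2-fold above every other pluripotent array, beside 2.17% of 9068 genes. Members of 1 family differed in this. *Tgm2* (9.89, 3.09-fold) and *Tgm3* (6.45, at least 2.25-fold) were above every other pluripotent line while *Tgm4* and *Tgm5* were not detected on any array. Among the S100 genes, *S100a14* (8.30, 7.84-fold), *S100a8* (7.92, at least 6.25-fold), *S100a3* (7.36, at least 4.26-fold) and *S100a4* (8.00, 3.28-fold) passed, whereas *S100a10*, *S100a11* and *S100a13* did not. *Ly6c1* also passed (at least 17.8-fold): it stood at 9.43 in the MEF 4F iPSCs and 10.63 in the MEFs and was not detected elsewhere. No member of the *Ywha* family, the other 14-3-3 genes beside *Sfn*, passed 2-fold, and neither did *Mgst1* (6.53 against 10.09 in the MEFs) or *Mgst2*. Of 24 enzymes of xenobiotic and glutathione metabolism, *Aldh3a1* (8.62, 6.98-fold) and *Ugt1a10* (at least 3.09-fold) passed, and *Nqo1*, a common target of the antioxidant response, was 7.29 against 7.17 to 7.88.

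Genes with a profile most like that of the set were ranked by Pearson's r, over the 8 arrays, with the median of the 10 genes after each had been centred on its own mean. Among 4175 genes, *Crybg1* (0.984), *Aldh1a3*, an enzyme of retinoic acid synthesis (0.982), *Ano1*, a chloride channel (0.971), *Lrrn4cl* (0.962), *Ly6c1* (0.961) and *Gsto1*, an omega-class glutathione transferase (0.954), came first. The first 5 of these were detected only in the MEFs and the MEF 4F iPSCs, and *Gsto1* on every array, at 13.20 in the MEF 4F iPSCs, 12.82 in the MEFs and lower elsewhere, down to 9.41 in the iNSCs. Of the genes themselves, *Cdsn* (0.970), *Mgst3* (0.956), *Msln* (0.933), *S100a7a* (0.931), *Ugt1a6a* (0.925) and *Meox2* (0.885) followed the profile that they helped to form, and *Tgm1* (0.473), *Tfap2a* (0.441) and *Sfn* (0.237) did so less. The 8 points share only 2 arrays with high levels, so r mostly reads those.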

How the data were processed

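Biotin-labelled cRNA from total RNA was hybridised to Illumina bead arrays. The authors deposited the mean bead intensity of each probe, before background correction and normalization, and a detection p-value against the negative control beads of each array; BeadStudio 3.2 is named in the submitters' processing notes. The authors also deposited log2 values, for which RMA and lumi are named without parameters; these served as an alternative. Genes were named through the platform annotation, updated to current RefSeq symbols: 23978 probes had 1 gene, and 1719, annotated with no gene or with several, were left unnamed. Intensities were normalized with neqc of limma 3.58.1 (R 4.3.3; normexp on control beads inferred from the detection p-values, offset 16, quantile normalization). Undetected probes were set at the lowest detected level of their array for bounds. Comparisons of single arrays carry no p-value. Both limma fits (lmFit, eBayes) left out the MEF 4F iPSC array and took genes detected on at least 2 arrays; their script was tested on simulated data. Their p-values measure the spread between these samples, which are different cell types or lines. Where levels lie under the detection limit, as for *Sfn* and *Tgm1* in the somatic samples, they do not measure a spread of expression. By rule, the genes named were the 10 genes, list genes highest in the MEF 4F iPSCs or at least 2-fold above every other pluripotent array, the keratinocyte, fibroblast and other markers, and the 10 nearest in profile and in margin; other list genes (such as *Casp14* and *Grhl3*) were picked after their values were seen. The genes and lists were chosen with earlier results of these data known. No columns were left unmatched (0).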

Additional observations from a re-analysis of the deposited data

Results flagged for a closer look

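The level of the brightest *Tfap2a* probe differed in opposite directions between donor and derived cells. From the MEFs to the MEF 4F iPSCs it was 0.58 higher on the log2 scale, but a second probe, detected on both arrays, was lower there (5.47 and 5.25). From the NSCs to the NSC 2F iPSCs the difference was 1.07 as read, but the NSC level lay under the detection limit, and against that limit the iPSCs were at least 0.15 higher. From the iNSCs to the iNdiPSC clones *Tfap2a* differed by -3.18, from 8.41 to 5.24 and 5.22. Each line but the clones is 1 array, and the difference between these changes was not tested.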

How the results depend on the processing

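Without background correction the number of genes at least 2-fold higher in the MEF 4F iPSCs fell from 9 to 4 against the ESCs, 3 against the NSC 2F iPSCs, 5 against the iNdiPSC clones and 3 against every other pluripotent array, and genes called between pluripotent lines and somatic samples numbered 1443 (main 2773). With 4-fold in place of 2-fold they numbered 4, 4 and 5 against the ESCs, NSC 2F iPSCs and clones. Between the clones and the ESCs with the NSC 2F iPSCs, 39 genes were called without background correction, 144 with 75th percentile scaling, 10 without the detection filter and 2 to 914 with 1 array left out (main 89). *Mgst3* changed sign in the first test, from 0.08 to -0.052 without background correction and to a range of -0.51 to 1.01 with 1 array left out; *Tfap2a* in the second, from 0.01 to -0.039 with 75th percentile scaling and to -0.11, without the ESCs, and -0.00084, without iNdiPSC-1, up to 0.13 without the NSC 2F iPSCs. The cause was not tested. In the authors' log2 values 9 genes passed against each pluripotent comparison; over all genes, 690 were higher and 511 lower than in the ESCs, against 516 and 245. Of 50 alternative values of the summary counts 35 stayed the same and 15 moved. Of 114 of single genes 80 stayed the same, 25 moved, 6 reversed, 2 newly passed the test and 1 no longer passed. All 25 that moved were margins of a gene over the highest other pluripotent array, by at least the clone SD of that gene. Few of these margins stayed the same, though all kept their sign. That of *Meox2*, 2.44 as read, was 0.82 without background correction and 4.55 in the authors' values. For the limma tests, the same means only an unchanged call and sign. Levels near the detection limit are bounds, and no line but the iNdiPSCs has a second array. No paired analysis was made, since the replicate numbers do not pair the samples. The iNdiPSC clones were derived from iNSCs and the NSC 2F iPSCs from NSCs. Both limma fits took the arrays as independent and did not account for this derivation.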

Other observations

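Outside the lists, the genes with the widest margin of the MEF 4F iPSCs over every other pluripotent array were *Slc38a5*, an amino acid transporter (179-fold), *Cldn11*, a tight junction protein (at least 47.0-fold), *Nccrp1* (45.1-fold), *Mal* (at least 34.7-fold), *St3gal6*, a sialyltransferase (33.2-fold), *Asprv1*, a protease of the upper epidermis (at least 29.6-fold), and *Epgn*, an epidermal growth factor receptor ligand (at least 20.8-fold). *St3gal6* was detected in the MEFs at 8.27, and *Slc38a5*, *Cldn11*, *Nccrp1*, *Mal* and *Asprv1* were not detected there. In all, 168 of 10225 genes detected on any array were detected in the MEF 4F iPSCs alone.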
